A study of Mus musculus with 2 samples.

Results

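The 10 genes described here encode enzymes that turn cholesterol into bile acids and join bile acids to an amino acid (Cyp7a1, Cyp7b1, Cyp27a1, Hsd3b7, Akr1d1, Cyp8b1, Amacr, Acox2 and Baat) and the repressor of that synthesis, Nr0b2. They were taken by name, as every probe set of the array whose platform gene symbol is one of them. This gave 16 probe sets of the 45037 that are not controls, and 10 of the 18193 named genes. The samples were livers of male 129SvEJ mice aged 8 weeks that carried both copies of the PPARα gene (wild type) or lacked it (pparalpha-/-, called null here). Both genotypes ate chow containing 0.2% fenofibrate for 7 days, so no group of this study went without the drug. Fenofibrate activates PPARα, a nuclear receptor of liver cells. RNA of 3 mice per genotype was pooled, and each pool was measured on 1 Affymetrix array. There are 2 arrays in all and no replicates, so no difference given here has a replicate check, an SD or a p-value, and every value is that of 1 pool. The labels name neither the part of the PPARα gene that was disrupted nor the background of the null line beyond the strain.

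Bile acids are made in hepatocytes by 2 routes. In the classical route Cyp7a1 sets the pace by adding a hydroxyl group to cholesterol, while in the alternative route Cyp27a1 oxidises the side chain and Cyp7b1 then hydroxylates the ring. Hsd3b7 and Akr1d1 rebuild the ring in both routes, and Cyp8b1 decides whether cholic acid, rather than the chenodeoxycholic acid from which mice make muricholic acids, is formed. The side chain is shortened in peroxisomes, with Amacr and Acox2 among the enzymes, and Baat joins the product to taurine or glycine. Bile acids that return to the liver act on the receptor FXR, which induces Nr0b2 (also called SHP), a repressor of Cyp7a1 and Cyp8b1. In rodents, PPARα agonists are known to lower Cyp7a1 and to raise Cyp8b1.

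The table of start regions from RefSeq (GRCm38.p6) held a window of 250 bases before and 50 after the start site for 6 of the 10 genes, with 7 windows in all because Acox2 has 2. Cyp7a1, Cyp7b1, Baat and Amacr had no window there. The windows of Cyp8b1, the gene with the highest ratio of wild type over null, of Nr0b2, the regulator, and of Akr1d1 are shown because they hold matches to short motifs of the liver nuclear receptors. Capitals mark the matches, on either strand, to CAAAGTCCA (the HNF4 core), TCAAGG (the core bound by LRH-1), AGGTCA (the general nuclear receptor core) and TATAAA (the TATA box). The Cyp8b1 window is chr9:121916256-121916555 on the minus strand, the Nr0b2 window chr4:133553126-133553425 on the plus strand and the Akr1d1 window chr6:37529923-37530222 on the plus strand, each printed in the direction of transcription.
Cyp8b1: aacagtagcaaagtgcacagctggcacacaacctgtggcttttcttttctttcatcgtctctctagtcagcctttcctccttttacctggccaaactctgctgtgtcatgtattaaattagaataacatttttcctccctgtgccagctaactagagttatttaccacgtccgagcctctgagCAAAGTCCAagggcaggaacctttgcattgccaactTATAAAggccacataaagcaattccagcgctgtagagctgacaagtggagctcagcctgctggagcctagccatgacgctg
Nr0b2: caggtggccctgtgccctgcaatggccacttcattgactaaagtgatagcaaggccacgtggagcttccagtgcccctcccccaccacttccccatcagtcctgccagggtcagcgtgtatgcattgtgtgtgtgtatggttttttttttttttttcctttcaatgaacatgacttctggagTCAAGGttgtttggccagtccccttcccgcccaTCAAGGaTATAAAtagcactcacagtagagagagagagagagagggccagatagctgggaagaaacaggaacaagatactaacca
Akr1d1: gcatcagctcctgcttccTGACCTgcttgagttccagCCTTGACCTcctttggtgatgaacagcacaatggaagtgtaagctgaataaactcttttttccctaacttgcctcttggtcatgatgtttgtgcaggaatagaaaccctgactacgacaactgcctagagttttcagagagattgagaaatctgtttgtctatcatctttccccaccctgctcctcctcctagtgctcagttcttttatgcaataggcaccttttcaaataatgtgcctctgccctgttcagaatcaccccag

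In Cyp8b1 the HNF4 core began at position -67 from the start site and the TATA box at -31. In Nr0b2 the TCAAGG core occurred at -68 and again at -35, with a TATA box at -28. In Akr1d1 the TCAAGG core lay on the opposite strand at -213 and overlapped 1 of 2 AGGTCA matches, at -210 and -232 on that strand. Of 32851 start windows of the same length in the table, 0.475% held CAAAGTCCA, 14.4% TCAAGG, 16.3% AGGTCA and 13.6% TATAAA. The windows of Cyp27a1, Hsd3b7 and Acox2 held none of these letters. The motifs were chosen with the sequences in view, and a match is a description of letters, not of binding.

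Signals are linear intensities as the authors deposited them, scaled to a common target on both arrays, and the ratio given throughout is wild type over null. The median signal of all probe sets other than controls served as a floor (287.8 in wild type, 269.4 in null), and a gene was read from its brightest probe set by mean log2 signal. All 10 genes were above the floor on both arrays, as were 14 of their 16 probe sets. The label check came from Ppara itself, where the null signal was 36.0%, 42.9% and 50.6% of wild type at its 3 probe sets. A signal was thus left in null at all 3, and where these probe sets lie relative to the disrupted part is not given in the sources used here. Probe sets of different genes cannot be compared in level, so only the ratio of the same probe set between arrays is ordered below.

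Among the 10 genes, the enzymes that hydroxylate the 7 position of the ring were lower in wild type, Cyp8b1 was higher, and the other 7 genes lay between a log2 ratio of -0.58 and 0.29. Cyp7a1 and Cyp7b1 were at least 2-fold lower in wild type, and 0 of the 10 genes were at least 2-fold higher. Over all 13041 measured genes, 2.80% were at least 2-fold lower and 4.99% at least 2-fold higher. Genes as bright as these scatter less, so the same shares were taken over the 2192 genes above the floor on both arrays that were at least as bright as the dimmest of the 10. There 1.32% were at least 2-fold lower and 3.15% at least 2-fold higher. The median log2 ratio of the 10 genes was -0.09, beside 0.00457 for all measured genes and -0.06 for the bright ones. Their median was thus close to that of all genes, while 2 of the 10 lay beyond 2-fold on the lower side.

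Cyp7a1, the rate-limiting enzyme of the classical route, gave a signal of 11590 in wild type and 27930 in null. Its other probe set gave 4600 in wild type and 8465 in null. Wild type was low at both, by 2.41-fold and 1.84-fold, so the second probe set alone would not have passed 2-fold. Among the other genes above the floor on both arrays, 90 of 10059 had a lower ratio than Cyp7a1, which is 0.895%, and among the bright ones 0.502%.

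Cyp7b1, the oxysterol hydroxylase of the alternative route, gave 41307 in wild type and 83767 in null at its brightest probe set. A further probe set gave 23089 and 54879. Both were lower in wild type, by 2.03-fold and 2.38-fold, and the brightest sat just beyond 2-fold, or just short of it (log2 ratio -0.998) after median centring. The third probe set of Cyp7b1 was under the floor on both arrays, at 16.8 and 145.9, so it gives no fold. Of the other genes, 2.04% had a lower ratio, and 1.19% of the bright ones.

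Cyp27a1 opens the alternative route in mitochondria. Its signal was 26448 in wild type against 29014 in null (log2 ratio -0.13), with a further probe set under the floor on both arrays at 232.3 and 251.6. The route's side-chain oxidase was thus close to equal in the genotypes while its ring hydroxylase was not, the log2 ratios of Cyp7b1 and Cyp27a1 being -1.02 and -0.13.

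Hsd3b7 and Akr1d1 act on the ring after the 7-hydroxylation. Hsd3b7, the hydroxysteroid dehydrogenase, gave 31346 in wild type against 25681 in null (log2 ratio 0.29). Akr1d1, the 5β-reductase, gave 13648 and 16976 at the brightest probe set and 6652 and 7824 at the other. Its log2 ratios were -0.31 and -0.23, lower in wild type at both by less than 1.5-fold. The pair thus lay on opposite sides of 0, each within 2-fold.

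Cyp8b1, the sterol 12α-hydroxylase that leads to cholic acid, was the gene furthest towards wild type. Its probe set gave 29431 in wild type and 16522 in null, 1.78-fold higher and short of the 2-fold threshold. Of the other genes above the floor on both arrays, 569 of 10059 (5.66%) had a higher ratio, and 3.93% of the bright ones. Cyp8b1 was read from 1 probe set, so the value has no second reading.

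Amacr, the racemase that readies the side chain for shortening, gave 3969 and 4094, a log2 ratio of -0.04. Acox2, the peroxisomal oxidase of branched and bile acid side chains, gave 27852 in wild type against 24838 in null (log2 ratio 0.17). Baat, which conjugates the finished bile acid, gave 9901 and 9738 at its brightest probe set (log2 ratio 0.02) and 2516 and 1949 at the other (0.37). Amacr, Acox2 and Baat were thus within 1.3-fold between the genotypes at all 4 of their probe sets.

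Nr0b2, the repressor downstream of FXR, gave 4626 in wild type and 6907 in null, 1.49-fold lower in wild type. Cyp7a1 and Cyp8b1, which it is known to repress, had log2 ratios of -1.27 and 0.83. A link between Nr0b2 and either ratio was not tested. Of the other genes, 10.5% had a lower ratio, and 7.17% of the bright ones. This gene too was read from 1 probe set.

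**Figure D1:**
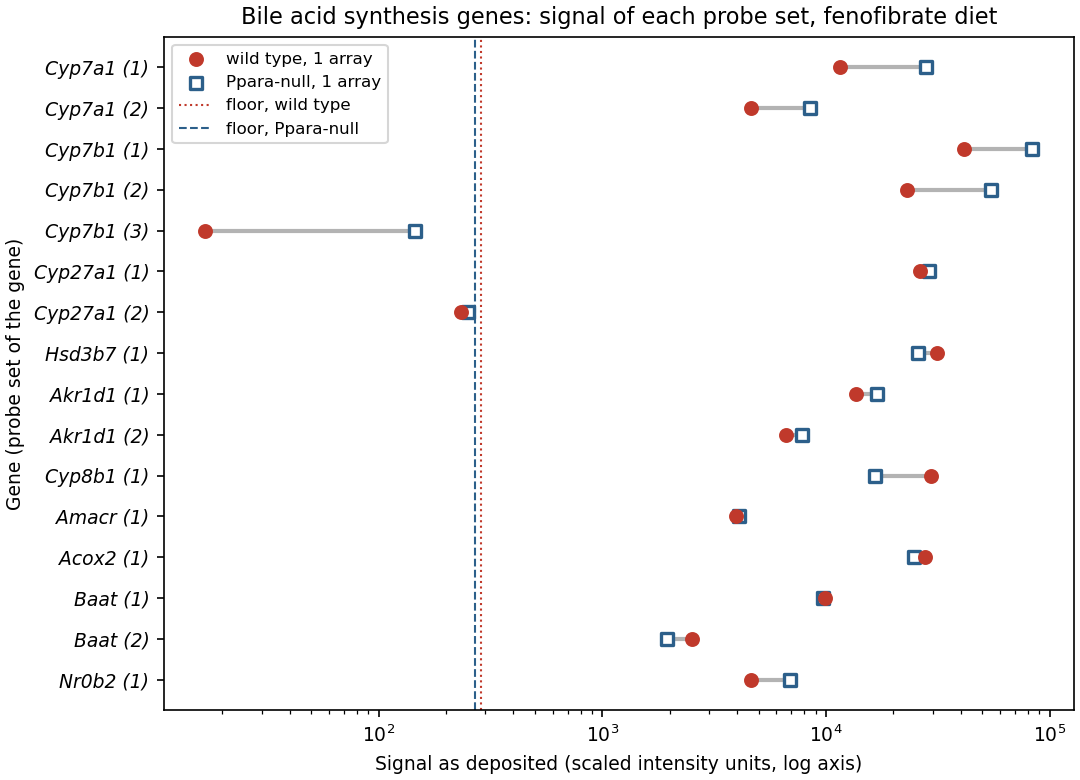
Signal of each of the 16 probe sets of the 10 genes (log axis, scaled intensity units) on the wild-type array (filled circles) and the null array (open squares), with the floor of each array as a vertical line. The probe sets of Cyp7a1 and Cyp7b1 that lie above the floors have the wild-type signal to the left of null, Cyp8b1 has it to the right (29431 against 16522), and the 2 probe sets left of the floors are those of Cyp7b1 and Cyp27a1.

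A measure of scatter came from different probe sets of the same gene, taken here as readings of the same ratio. Any real difference between what such probe sets read is part of this measure. Across 3917 genes with more than 1 probe set above the floor on both arrays (10117 probe sets), the log2 ratios of such probe sets scattered with a pooled SD of 0.42. Among probe sets as bright as the dimmest of the 10 genes it was 0.22, from 1460 probe sets in 615 genes. Variation from mouse to mouse or pool to pool is not part of this SD. Ordered by ratio, the genes ran Cyp7a1, Cyp7b1, Nr0b2, Akr1d1, Cyp27a1, Amacr, Baat, Acox2, Hsd3b7 and Cyp8b1. For a difference between 2 genes the SD that follows is 0.31 among bright probe sets and 0.60 among all. Neighbours in the order were less than 0.31 apart except at 2 steps, where Nr0b2 lay 0.44 above Cyp7b1 and Cyp8b1 lay 0.55 above Hsd3b7. Both of these steps exceed the SD for bright probe sets but not that for all probe sets. The other neighbours lay within both SDs. A gap beyond 1 SD does not settle an order, so the order of neighbours is not resolved at any step.

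Differences between genes within the same pair of arrays do not depend on how an array is scaled by a constant. The log2 ratio of Cyp8b1 exceeded that of Cyp7a1 by 2.10, which means that the signals of these genes changed unequally by 4.29-fold between the genotypes. With the other probe set of Cyp7a1 the difference was 1.71. Cyp8b1 exceeded Cyp7b1 by 1.85 to 2.08 over the pairs of probe sets, and Cyp27a1 by 0.97. Cyp7a1 and Cyp7b1 differed from each other by -0.25 to 0.37 over their 4 pairs of probe sets. The largest of these differences exceeds the SD of 0.31 for bright probe sets and is under that of 0.60 for all. Hsd3b7 exceeded Cyp7a1 by 1.17 to 1.56, and Nr0b2 exceeded it by 0.30 to 0.69.

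**Figure D2:**
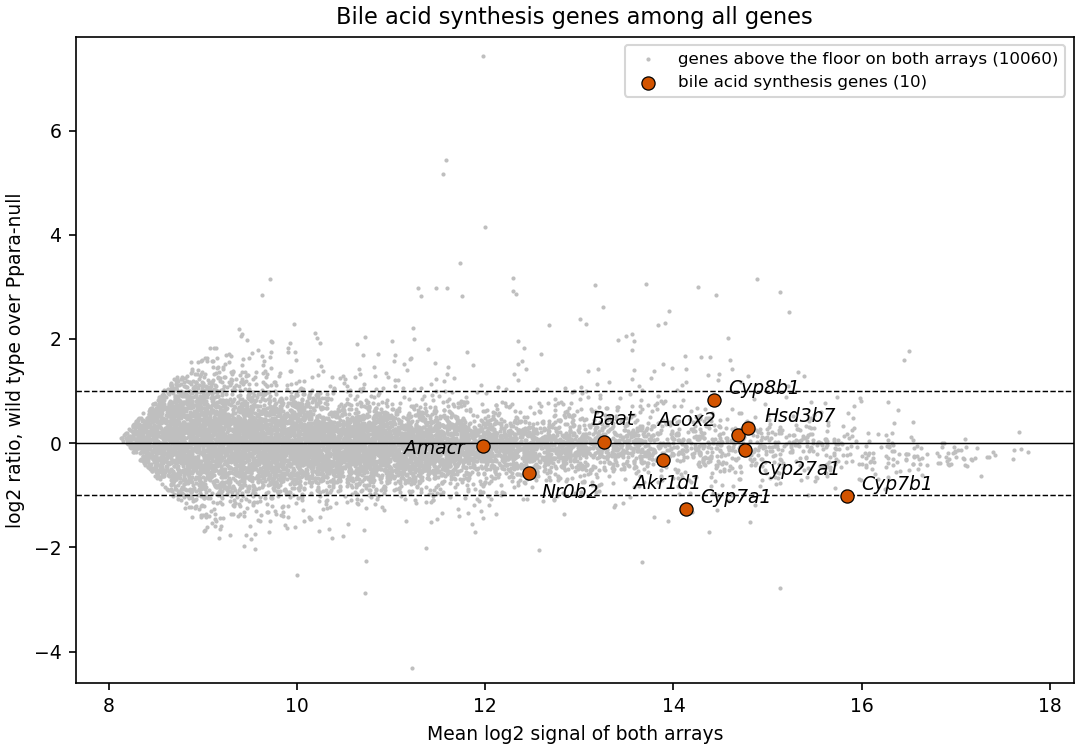
Log2 ratio of wild type over null against the mean log2 signal of both arrays for the 10060 genes above the floor on both (grey) and the 10 bile acid genes (orange), with dashed lines at 2-fold. Cyp7a1 (-1.27) and Cyp7b1 (-1.02) lie below the lower dashed line and Cyp8b1 (0.83) just under the upper one, with the other 7 genes among the bulk.

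The direction of small ratios depended on the scaling of the arrays. All 18 hybridization controls, bacterial and phage transcripts added to the hybridization mix, had a lower signal in wild type (median log2 ratio -0.38). Scaling the arrays to these controls therefore raised every log2 ratio by 0.38. The median of all measured genes then moved to 0.38, and calls at 2-fold numbered 1759 higher and 109 lower (94.2% higher), beside 651 and 365 (64.1% higher) as deposited. Under it Cyp7a1 stood at -0.89 and Cyp7b1 at -0.64, no longer 2-fold lower, and Cyp8b1 at 1.21, more than 2-fold higher. Akr1d1, Cyp27a1 and Amacr turned positive (0.06, 0.25 and 0.33). Nr0b2, at -0.20, stayed negative beside Cyp7a1 and Cyp7b1, so that 3 of the 10 genes were negative, against 6 as deposited. Relative to the median of all genes the places of the 10 genes did not move.

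**Figure D3:**
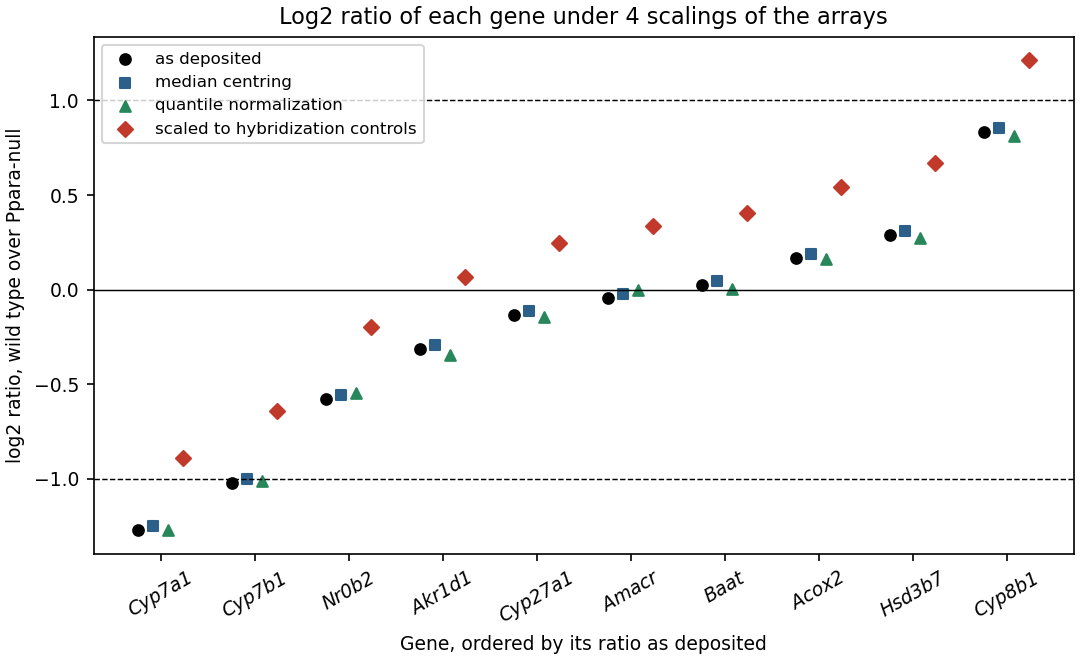
Log2 ratio of wild type over null for each of the 10 genes, ordered by the value as deposited, under 4 scalings of the arrays (marker shapes), with dashed lines at 2-fold. The deposited, median-centred and quantile values lie close together, while scaling to the hybridization controls lifts each gene by 0.38, which takes Cyp7a1 and Cyp7b1 above the lower dashed line and Cyp8b1 above the upper one.

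Other enzymes of the pathway, outside the 10 genes, included ratios well beyond 2-fold. All 10 listed were measured, with a median log2 ratio of 0.04 (0.42 after scaling to the controls, -0.07 with floors at the brightest control probe sets for Bacillus transcripts, which liver does not make). Of them 3 passed 2-fold towards wild type and 0 towards null, beside 4.99% and 2.80% of all measured genes. The 3 were peroxisomal proteins that also serve fatty acid oxidation. Acot8, an acyl-CoA thioesterase, gave 6807 in wild type and 961.7 in null (7.08-fold). Hsd17b4, the D-bifunctional protein that follows Acox2 in side-chain shortening, gave 43029 and 14298 (3.01-fold), and 2.62-fold at its other probe set. Abcd3, which imports the side-chain intermediates into peroxisomes, gave 65801 and 25627 (2.57-fold). The genes next to them in the sequence of steps were close to equal, since Amacr and Acox2 had log2 ratios of -0.04 and 0.17. The thiolase gene Scp2 had -0.07 at its brightest probe set, but its other probe sets disagreed, at -0.28, 0.62 and -0.23. Other genes of the list are named for their role, after their values were seen. Slc27a5, the bile acid-CoA ligase that acts just before Baat, had a log2 ratio of -0.39. Slc27a2, a further CoA ligase of this list, gave 106708 and 68536, 1.56-fold higher. With it 4 genes of the list were at least 2-fold higher after scaling to the controls, beside 1759 of all 13041 measured genes. Cyp2c70, which makes muricholic acids in mice, had -0.49, and Cyp39a1, a further oxysterol 7-hydroxylase, had -0.65. The 3 ring hydroxylases of the 7 position on the array (Cyp7a1, Cyp7b1 and Cyp39a1) were thus all negative, also after scaling to the controls, although Cyp39a1 was short of 2-fold.

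Among transporters of bile acids and bile lipids, 13 of 14 listed genes were measured. Their median log2 ratio was -0.08 (0.30 after scaling to the controls). Of them 3 passed 2-fold towards wild type and 1 towards null, beside 4.99% and 2.80% of all measured genes. Slco1a4, a sinusoidal organic anion carrier, gave 3005 in wild type and 12386 in null, 4.12-fold lower. Abcb4, the phospholipid exporter of the canaliculus, gave 15358 and 6812, 2.25-fold higher. Abcc4, a basolateral exporter of bile acid conjugates, was under the floor in null (1034 against 222.1) and so at least 3.84-fold higher. That bound fell to 2.45-fold with the floors at the Bacillus controls and to 1.26-fold with floors at the 75th percentile. Slc51a, a subunit of a basolateral bile acid carrier, was at least 2.10-fold higher (564.8 against 51.9). Its bound fell to 1.34-fold with the floors at the Bacillus controls and to 1.98-fold after quantile normalization. Its partner Slc51b was under the floor on both arrays. The cholesterol exporter Abcg5 had a log2 ratio of 0.72. The main bile acid uptake carrier Slc10a1 (-0.39) and the bile salt export pump Abcb11 (-0.33), named for their role after their values were seen, were within 2-fold. The other probe set of Slc10a1 gave -0.008 (46901 in wild type against 47159 in null).

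Of 17 listed regulators of bile acid synthesis, 15 were matched by symbol and all 15 were measured. At its brightest probe set none of these was 2-fold apart in either direction, with 10 negative and 5 positive log2 ratios and a median of -0.26. That median turned to 0.12 after scaling to the controls, with 11 positive. The ratios furthest from 0 were those of Nr5a2 (LRH-1, an activator of Cyp7a1 and Cyp8b1) at -0.75, Fgfr4 (the receptor for the gut hormone that represses Cyp7a1) at -0.74 and Prox1 (a corepressor) at -0.62. Probe sets disagreed for Nr5a2, with -0.15 and 0.66 at the others above the floor on both arrays, and for Fgfr4, with 0.43 at the other. Dimmer probe sets that were under the floor in wild type gave bounds beyond 2-fold for 2 of these genes, at least 3.23-fold lower for Prox1 (196.5 against 929.9) and at least 2.93-fold lower for Fgfr4 (186.5 against 842.5). FXR itself (Nr1h4, -0.27), the Fgfr4 partner Klb (0.06) and Hnf4a (-0.31), given for their role after their values were seen, were within 1.3-fold at their brightest probe sets. The other Hnf4a probe sets gave 0.16, -0.47 and -0.03.

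Relatives of the 10 genes by family showed other ratios. Of 8 matched by symbol 6 were measured, with a median of -0.42 on the log2 scale (-0.04 after scaling to the controls). Of these 1 passed 2-fold towards wild type and 2 towards null, beside 4.99% and 2.80% of all measured genes. The median depended on the floor, being -0.31 with floors at the 25th percentile and 0.47 with none. With no floor, 4 of 8 passed 2-fold towards wild type and 2 towards null, beside 3096 and 2177 of all 18193 genes. Acnat2, an acyltransferase related to Baat, gave 1583 in wild type and 604.7 in null (2.62-fold higher, or at least 1.93-fold with floors at the 75th percentile), whereas Baat was equal to within 1.3-fold at both probe sets. Hsd3b2 and Hsd3b5, steroid dehydrogenases related to Hsd3b7, were 2.55-fold and 2.04-fold lower (2779 against 7085, and 8339 against 16975), while Hsd3b7 was on the positive side. The genes of this family are close copies, so that probe sets may share signal, and the Hsd3b2 ratio shrank to 1.43-fold when probe sets with several gene symbols were added. Under control scaling Hsd3b2 and Hsd3b5 were 1.96-fold and 1.57-fold lower.

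**Figure D4:**
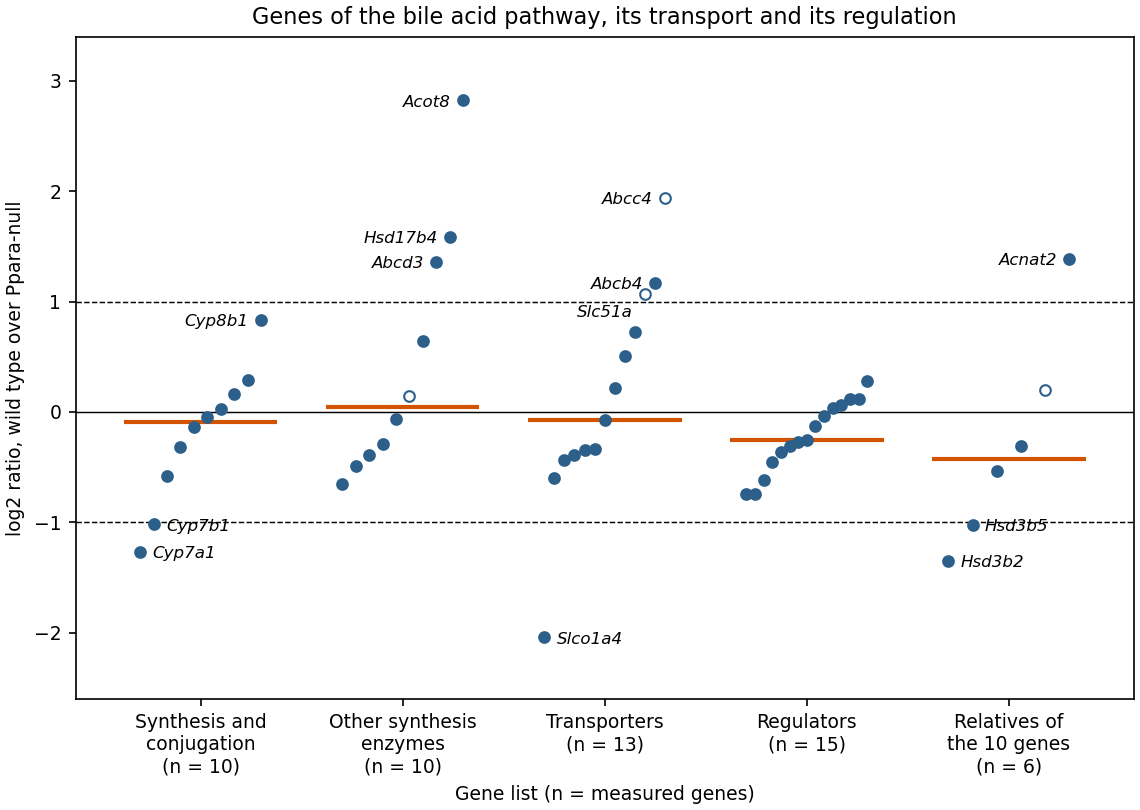
Log2 ratio of wild type over null of each measured gene in the 10 synthesis and conjugation genes and in 4 related lists (filled, above the floor on both arrays; open, above it on 1 array, a bound), with list medians as orange bars and dashed lines at 2-fold. Genes beyond 2-fold and Cyp8b1 are named, and no regulator lies beyond a dashed line.

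The liver label was checked with hepatocyte markers, which were bright on both arrays. The 6 matched by symbol all had negative log2 ratios, with a median of -0.26 (0.12 after scaling to the controls). The largest were Apoc3 (-0.39), Asgr1 (-0.32) and Hnf4a (-0.31 at its brightest probe set, but 0.16, -0.47 and -0.03 at the others). The summed signal of the 6 markers was 723147 in wild type and 841052 in null. Of 6 markers of cholangiocytes, the cells that line bile ducts, 0 were above the floor on both arrays, with signals of 27.7 to 434.4 in wild type and 32.7 to 551.7 in null. Of 8 Kupffer cell markers 7 were measured, 6 of them negative with a median of -0.62 (-0.25 after scaling to the controls). Cd5l (1910 against 4052) was 2.12-fold lower, or 1.63-fold after that scaling, followed by Clec4f (-0.70) and Vsig4 (-0.63). Endothelial markers (7 of 7 measured, 5 negative and 2 positive) had a median of -0.39 (-0.01 after scaling to the controls). Eng (-0.82, but -0.28 at its other probe set), Kdr (-0.55) and Tek (-0.44) were furthest down. Pecam1 was at least 2.36-fold higher, a bound that fell to 1.51-fold with the floors at the Bacillus controls. Stellate cell markers (7 of 8 measured) were split, 4 negative and 3 positive, with a median of -0.32 (0.06 after scaling to the controls). Those furthest from 0 were Lrat (-0.64), Reln (-0.51) and Rgs5 (-0.34). Of 6 lymphocyte markers only Cd8a (-0.85) was above the floor on both arrays. In RNA of whole liver, fewer cells of a type and less RNA per cell cannot be told apart.

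Cyp7a1 and Cyp27a1 are known as genes of the hepatocytes around the central vein, so genes of that zone were set beside them. Of 11 other pericentral genes, 10 were negative with a median log2 ratio of -0.87. The positive one was Glul, with 0.07 at its brightest probe set and 0.21 at the other. The median was the value of Axin2, near the floor in wild type (320.8, against 587.2 in null). Lgr5 was also near the floor in wild type (337.4, against 647.5 in null). Its other probe set went the other way, at least 1.90-fold higher in wild type (511.4 against 148.1). Slc1a4 was under the floor in wild type (287.5), so its ratio is a bound. Glul, Axin2, Lgr5 and Slc1a4 are named after their values were seen. The list median was -0.51 by the median over probe sets, and -0.51 for the 7 genes measured with floors at the 75th percentile. As deposited 3 genes were at least 2-fold lower in wild type, beside 2.80% of all measured genes. They were Slc1a2 (2.83-fold), Gulo (2.34-fold) and Rhbg (2.30-fold). Slc1a2 had conflicting probe sets, being 1.17-fold higher in wild type at the other one above the floor on both arrays. By the median over its probe sets it was at least 1.14-fold lower, a bound. After scaling to the controls the list median was -0.49 and only Slc1a2 remained 2-fold lower, with Gulo at 1.80-fold and Rhbg at 1.77-fold. Rhbg was at least 1.26-fold lower with floors at the 75th percentile. The ratio of Cyp7a1 thus lay on the same side as most of this zone's genes, while that of Cyp27a1 (-0.13) was nearer to 0. Of 8 periportal genes 6 were negative, with a median of -0.41 (-0.03 after scaling to the controls), and Aldh1b1 (3.46-fold), Ass1 (2.80-fold, or 1.44-fold with probe sets of several symbols) and Pck1 (1.58-fold) were lowest. The part of these shifts in the ratios of the 10 genes was not tested.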

How the data were processed

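The deposited values are linear signal intensities of probe sets. Per the labels, the authors made them with the Affymetrix statistical algorithm and scaled each array to a target of 1000, and the mean trimmed by 2% at either end was 1000.01 on both arrays. The software version is not given in the sources used here. Symbols came from GEO's platform annotation, and only probe sets with exactly 1 symbol were used. All 10 genes matched RefSeq (GRCm38.p6) by identifier, with 0 symbols changed.

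Values below the floor were set to the floor, and log2 ratios were then computed. A gene counted as measured when above the floor on at least 1 array. Above it on 1 array only, the fold is a bound ("at least"). There is no test with 1 array per genotype, so calls rest on size alone (2-fold or more), and the number of arrays limits the precision. Analyses used Python 3.11.15, numpy 2.4.6 and pandas 2.3.3.

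The 10 genes and the gene lists were chosen with earlier results of these data known, and the comparison with bright genes was added after their values were seen. Named in each list were genes at least 2-fold apart and the 3 ratios furthest from 0 among genes above the floor on both arrays. Genes named for their role are marked. With 2 arrays, no likeness of pattern between genes could be measured.

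Alternatives were median centring, quantile normalization, scaling to the hybridization controls, other floors (25th percentile, 75th percentile, the brightest Bacillus control, none), the median over probe sets, leaving out those ending in _x_at or _s_at, addition of probe sets with several symbols, and thresholds of 1.5-fold and 3-fold.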

Additional observations from a re-analysis of the deposited data

How the results depend on the processing

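Of the 10 genes, 2 were at least 2-fold lower in wild type as deposited. That count was 1 after median centring, where Cyp7b1 stood at a log2 ratio of -0.998, and 0 after scaling to the hybridization controls or at a 3-fold threshold. Over all 13041 measured genes, the number lower was 365 as deposited, 329 after median centring, 109 after that scaling and 58 at 3-fold. The count of the 10 genes at least 2-fold higher, 0 as deposited, was 1 (Cyp8b1) after scaling to the controls. It was also 1 (Cyp8b1) at a 1.5-fold threshold. Of all 13041 measured genes, 1759 were higher after that scaling and 1925 at 1.5-fold. A count of 1 among 10 is thus no larger a share than that of all genes. The cause of the shift in the controls was not tested. Over the 10 alternatives of scaling, floor and probe set choice, Cyp7a1 lay between -1.27 and -0.89, Cyp7b1 between -1.13 and -0.64, Cyp8b1 between 0.81 and 1.21 and Nr0b2 between -0.58 and -0.20. The difference between Cyp8b1 and Cyp7a1 lay between 1.91 and 2.10. The choice of floor moved none of the 10 genes, since the brightest probe set of each lies above every floor tried. With 1 pool per genotype, no alternative measures the spread between mice.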
